A study of Oryza sativa Japonica Group with 24 samples.

Results

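Roots of rice (Oryza sativa Japonica) seedlings that overexpressed the transcription factor gene bHLH6 (bHLH6-OV) were set against wild-type (WT) roots, both grown with ample phosphate (Pi). The comparison rested on 6 of the 24 libraries of the series, chosen by their labels: 3 bHLH6-OV and 3 WT libraries, each at 200 µM Pi, called high Pi here. Plants were 7 days old when the Pi supply began, were kept on it for 2 weeks, and gave roots at 21 days of age. Each library pooled 3 seedlings and counted as 1 biological replicate. Roots of the T-DNA insertion line spx4 at 200 µM Pi and WT roots at 10 µM Pi (low Pi) gave further values for orientation, 3 libraries each, and shoots of bHLH6-OV and WT at 200 µM Pi served for a comparison between tissues. The age at harvest of the low Pi plants is not given in the sources used here. All lines share the strain label of a Japanese rice. The promoter of the construct and the number of transformed lines are not given in the sources used here, so effects of bHLH6 cannot be told apart from effects of the line that carries it.

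bHLH6, also known as RERJ1, is a basic helix-loop-helix (bHLH) factor whose gene responds to jasmonate, a hormone of wounding and defence. The series sets it beside SPX4, a protein that holds the Pi starvation activator PHR2 in check when Pi is ample. Grass roots take up iron by secreting mugineic acids, called phytosiderophores, which are made from methionine by way of nicotianamine, bind ferric iron in the soil and are carried back into the root as iron complexes. Rice roots also import ferrous iron directly, and the genes of both routes are known to be switched on together when iron is scarce.

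Levels are FPKM, that is fragments mapped to a gene, divided by its length and by the size of the library, listed for replicates 1, 2 and 3. Differences are log2 fold changes of FPKM + 1, bHLH6-OV minus WT, with their standard error (SE). A gene was called where limma gave a Benjamini-Hochberg adjusted p under 0.05. The bHLH6-OV libraries held 22.4 to 26.9 M reads in genes and the WT libraries 22.1 to 24.3 M. Of 22090 genes tested, 3975 were called (18.0%), 1684 higher (7.62%) and 2291 lower (10.4%) in bHLH6-OV roots, with a median absolute log2 fold change of 0.56 among calls. The balance of directions depended on the scale: limma-voom on rebuilt reads called 2027 higher and 1888 lower, the fit without a filter 2209 higher among 4375 calls, and TPM scaling 1870 higher and 2004 lower. On the FPKM + 1 scale, at least 2-fold differences numbered 646 (2.92%), 394 higher and 252 lower, and at least 16-fold ones 24 higher and 5 lower. Values of the 3 bHLH6-OV libraries did not overlap those of the 3 WT libraries for 9301 genes (42.1%). These included 3959 of the 3975 called genes, so a lack of overlap printed below for a called gene is not separate evidence. For the strongest rises and falls a lack of overlap was also a condition of their selection. Of the calls, 1855 held whichever of the 6 libraries was left out. The bHLH6-OV library of replicate 3 stood apart: 249 genes were at least 2-fold above both of its sister libraries, against 2 to 16 such genes for the other 5 libraries.

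**Figure D1:**
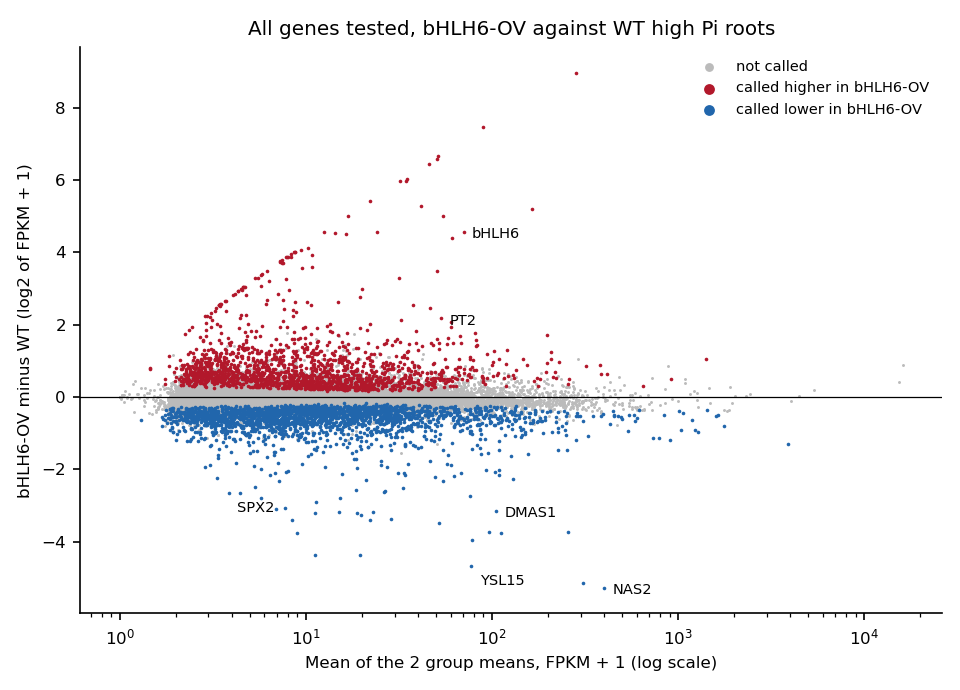
All 22090 genes tested, with the mean of the bHLH6-OV and WT group means as FPKM + 1 on a log axis and the log2 fold change of bHLH6-OV over WT. Red points were called higher and blue points lower in bHLH6-OV roots (limma adjusted p under 0.05), and the named iron genes NAS2, YSL15 and DMAS1 lie among the lowest.

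The overexpressed gene checked the labels. bHLH6 (LOC_Os04g23550, chromosome 4, 13466420 to 13468869, minus strand) stood at 115, 124 and 164 FPKM in bHLH6-OV roots, against 5.35, 5.66 and 3.24 in WT roots. The groups lay far apart, at 134 ± 25.6 and 4.75 ± 1.32 FPKM (SD, n = 3 each; log2 fold change 4.57, SE 0.64, limma adjusted p = 0.00076). SPX4 (LOC_Os03g61200) had 12.4, 9.66 and 10.9 FPKM in bHLH6-OV roots, against 11.4, 11.4 and 11.1 in WT roots, and was not called (limma adjusted p = 0.804). The deposited table names neither gene, and the locus of each symbol was taken from published assignments. Coordinates come from that table, and no genome build is named in the sources used here. For TOM1, IRO2 and VIT2 below, the reference gene table places the symbol at another position, so these names rest on the published assignment alone.

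Genes that make, export and re-import phytosiderophores were mostly far lower in bHLH6-OV roots, with 8 of the 9 tested called lower (88.9%, against 10.4% of all genes called lower). Their median log2 fold change was -3.78, against -0.02 over all genes tested. NAS2 (LOC_Os03g19420), a nicotianamine synthase, had 30.2, 8.55 and 23.3 FPKM in bHLH6-OV roots, against 1089.6, 659 and 582 in WT roots, a 37.5-fold lower mean (log2 fold change -5.27, SE 0.64, limma adjusted p = 0.000295). NAS1 (LOC_Os03g19427), the neighbouring nicotianamine synthase, had 24.99, 7.59 and 18.2 FPKM in bHLH6-OV roots, against 839, 514 and 444 in WT roots (log2 fold change -5.15, SE 0.61, limma adjusted p = 0.000243). The highest bHLH6-OV library was thus far under the lowest WT library for both genes. They lie beside each other on chromosome 3 (10926469 to 10930895, on opposite strands) and are alike in sequence, so the division of reads between them is uncertain.

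The next enzymes of the pathway followed the same order of groups. NAAT1 (LOC_Os02g20360), the nicotianamine aminotransferase, had 19.02, 9.80 and 14.2 FPKM in bHLH6-OV roots, against 261, 182 and 175 in WT roots (log2 fold change -3.78, limma adjusted p = 0.000221). DMAS1 (LOC_Os03g13390), which makes deoxymugineic acid, had 24.2, 16.0 and 21.0 FPKM in bHLH6-OV roots, against 228, 172 and 166 in WT roots (log2 fold change -3.15, SE 0.27, limma adjusted p = 2.02e-05). In both cases every bHLH6-OV library was below every WT library. NAS3 (LOC_Os07g48980), the third nicotianamine synthase gene, differed far less, with 23.0, 18.2 and 18.3 FPKM in bHLH6-OV roots, against 30.8, 23.2 and 25.1 in WT roots (log2 fold change -0.39, limma adjusted p = 0.0384). This call was lost without WT replicate 1 or 3 or without bHLH6-OV replicate 2 or 3, and with TPM scaling, median-of-ratios scaling, limma-voom or no filter.

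Transporters at the start and end of the cycle were lower as well. TOM1 (LOC_Os11g04020), the exporter of deoxymugineic acid, had 13.5, 4.71 and 8.53 FPKM in bHLH6-OV roots, against 193, 130 and 112 in WT roots (log2 fold change -3.94, SE 0.42, limma adjusted p = 0.000115). YSL15 (LOC_Os02g43410), which imports the iron complex, had 7.81, 2.89 and 4.64 FPKM in bHLH6-OV roots, against 179, 128 and 136 in WT roots (log2 fold change -4.67, SE 0.49, limma adjusted p = 0.000115). ENA1 (LOC_Os11g05390), an efflux transporter of nicotianamine, had 7.82, 4.76 and 6.10 FPKM in bHLH6-OV roots, against 38.7, 29.9 and 33.4 in WT roots (log2 fold change -2.29, limma adjusted p = 9.13e-05). No library of one group reached the range of the other for these 3 genes, as was so for nearly all called genes. YSL16 (LOC_Os04g45900), another transporter of the iron complex, had 25.2, 20.7 and 25.3 FPKM in bHLH6-OV roots, against 36.0, 31.9 and 35.0 in WT roots, and missed the threshold (limma adjusted p = 0.054). YSL2 was too low to be tested.

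Summed over the list, phytosiderophore genes came to 176, 93.4 and 140 FPKM in bHLH6-OV roots, against 2896, 1871 and 1708 in WT roots. The other root groups shared the WT high Pi libraries as their reference and stood low too: the sum averaged 293 FPKM in spx4 roots and 123 in low Pi WT roots. WT replicate 1 was the highest of the 6 libraries for each of the 9 tested genes, and 7 of the 8 calls held without it. In whole roots, fewer cells of a type and less RNA per cell cannot be told apart.

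Ferrous iron and metal uptake transporters made a second group, with 4 of 6 tested genes called lower (10.4% of all genes were) and none higher. NRAMP1 (LOC_Os07g15460), a metal importer, had 5.01, 2.21 and 3.64 FPKM in bHLH6-OV roots, against 50.3, 34.4 and 36.4 in WT roots (log2 fold change -3.19, SE 0.34, limma adjusted p = 0.000119). IRT1 (LOC_Os03g46470), the main ferrous iron transporter of rice roots, had 6.31, 6.72 and 5.75 FPKM in bHLH6-OV roots, against 48.3, 40.4 and 44.0 in WT roots (log2 fold change -2.64, SE 0.11, limma adjusted p = 1.47e-08). Its libraries agreed closely within each group, and the mean was 7.07-fold lower in bHLH6-OV roots. IRT2 (LOC_Os03g46454), a close relative, was nearly silent, with 0.329, 0.208 and 0.724 FPKM in bHLH6-OV roots, against 15.6, 9.28 and 9.26 in WT roots (log2 fold change -3.10, limma adjusted p = 0.000785). OPT7 (LOC_Os03g54000), an oligopeptide transporter tied to iron, had 8.47, 5.14 and 6.004 FPKM in bHLH6-OV roots, against 54.1, 39.2 and 41.0 in WT roots (log2 fold change -2.61, limma adjusted p = 8.77e-06). The manganese importer NRAMP5 and the citrate transporter FRDL1 were not called (limma adjusted p = 0.44 and 0.698).

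The regulators of these genes differed in direction, with 3 of 8 tested called lower and 2 higher, beside 10.4% and 7.62% of all genes. IRO2 (LOC_Os01g72370), the bHLH activator of phytosiderophore genes, had 5.63, 3.03 and 4.54 FPKM in bHLH6-OV roots, against 36.2, 28.2 and 28.1 in WT roots (log2 fold change -2.58, SE 0.37, limma adjusted p = 0.000935). Its partner bHLH156 (LOC_Os04g31290) had 10.7, 12.5 and 9.84 FPKM in bHLH6-OV roots, against 32.7, 28.8 and 28.8 in WT roots (log2 fold change -1.38, limma adjusted p = 2.09e-05). IRO3 (LOC_Os03g26210), a bHLH repressor of the iron deficiency response, had 5.78, 4.20 and 4.54 FPKM in bHLH6-OV roots, against 26.1, 22.9 and 25.03 in WT roots (log2 fold change -2.14, limma adjusted p = 0.000312). The activator's partner and the repressor were thus low beside the activator. Factors placed upstream of IRO2 and IRO3 differed little: PRI1 and PRI2 were not called, PRI3 averaged 12.3 FPKM in bHLH6-OV and 9.85 in WT roots (log2 fold change 0.29, limma adjusted p = 0.0108), and IDEF1 was not called. IDEF2 passed (log2 fold change 0.30, limma adjusted p = 0.0438), but not once any 1 library was left out.

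Iron storage and sensing genes went mostly the other way, with 4 of 6 called higher and 1 lower, beside 7.62% and 10.4% of all genes. FER1 (LOC_Os11g01530), an iron-storing ferritin, had 17.6, 20.2 and 18.6 FPKM in bHLH6-OV roots, against 8.56, 10.1 and 8.98 in WT roots (log2 fold change 0.96, SE 0.13, limma adjusted p = 0.00072). FER2 (LOC_Os12g01530), its near-identical copy, had 12.8, 14.9 and 12.7 FPKM in bHLH6-OV roots, against 6.10, 6.37 and 7.64 in WT roots (log2 fold change 0.91, limma adjusted p = 0.000121), and the split of reads between the ferritins is uncertain. VIT2 (LOC_Os09g23300), which loads iron into the vacuole, had 6.47, 11.8 and 8.68 FPKM in bHLH6-OV roots, against 3.13, 4.08 and 4.24 in WT roots (log2 fold change 1.02, limma adjusted p = 0.00265). All 3 genes were higher in every bHLH6-OV library than in any WT library. The iron-binding ubiquitin ligases HRZ1 and HRZ2, which restrain the iron deficiency response, moved apart. HRZ1 (LOC_Os01g49470) had 7.41, 7.88 and 6.76 FPKM in bHLH6-OV roots, against 16.7, 13.6 and 13.9 in WT roots (log2 fold change -0.91, limma adjusted p = 0.000123). HRZ2 (LOC_Os05g47780) had 19.5, 19.3 and 17.5 FPKM in bHLH6-OV roots, against 13.1, 11.3 and 11.8 in WT roots (log2 fold change 0.60, limma adjusted p = 0.00844). Over the iron lists together, 16 of 29 tested genes were called lower and 6 higher.

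**Figure D2:**
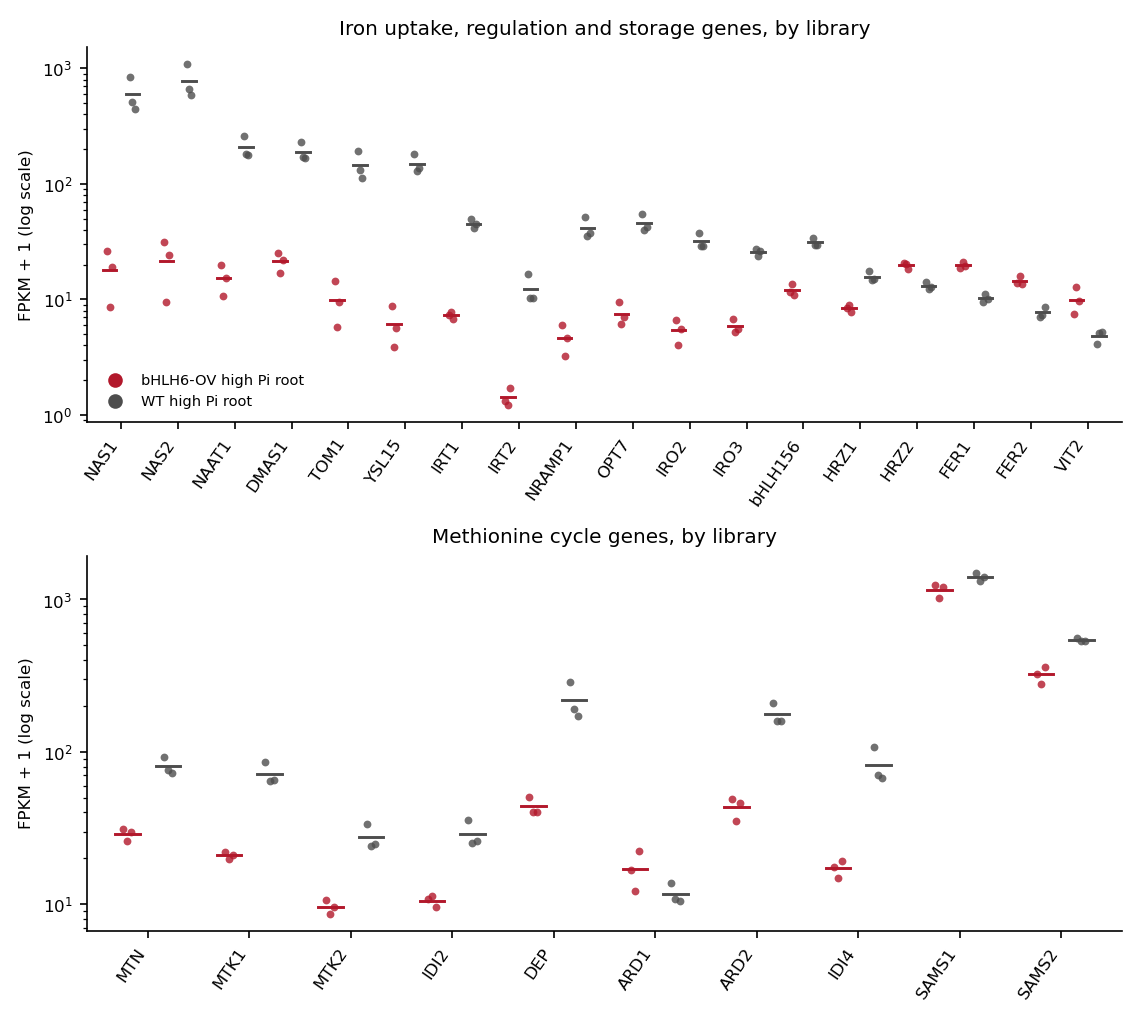
FPKM + 1 on log axes for iron uptake, regulation and storage genes (upper panel) and methionine cycle genes (lower panel), with 1 point per library and a bar at each group mean, bHLH6-OV in red and WT in grey. The phytosiderophore, uptake and IRO genes lie lower in every bHLH6-OV library, FER1, FER2, VIT2 and HRZ2 lie higher, and ARD1 overlaps between the groups.

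The methionine cycle, which recycles the sulphur compound left over when nicotianamine is made, had 8 of 10 tested genes called lower in bHLH6-OV roots (10.4% of all genes were) and none higher. These genes were listed with their values in view, so the count is a description. Along the cycle, the nucleosidase MTN (LOC_Os06g02220) had 30.4, 24.9 and 28.6 FPKM in bHLH6-OV roots, against 90.9, 75.5 and 72.0 in WT roots (log2 fold change -1.47, limma adjusted p = 4.23e-05). The methylthioribose kinase MTK1 (LOC_Os04g57400) had 21.0, 18.7 and 20.1 FPKM in bHLH6-OV roots, against 85.1, 63.4 and 64.1 in WT roots (log2 fold change -1.77, SE 0.13, limma adjusted p = 8.0e-06). Its neighbour and near copy MTK2 gave -1.51 and the isomerase IDI2 gave -1.44 on the same log2 scale. DEP (LOC_Os11g29370), the dehydratase-enolase-phosphatase, had 49.4, 39.6 and 39.4 FPKM in bHLH6-OV roots, against 287, 191 and 171 in WT roots (log2 fold change -2.28, SE 0.18, limma adjusted p = 1.05e-05). For every gene named so far in the cycle the groups did not overlap.

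The last steps had the same direction. ARD2 (LOC_Os03g06620), an acireductone dioxygenase, had 48.2, 34.1 and 44.9 FPKM in bHLH6-OV roots, against 210, 157 and 159 in WT roots (log2 fold change -2.02, limma adjusted p = 3.84e-05), whereas its relative ARD1 overlapped between groups (limma adjusted p = 0.203). IDI4 (LOC_Os09g28050), an aminotransferase of the cycle, had 16.5, 13.9 and 18.1 FPKM in bHLH6-OV roots, against 106, 69.5 and 66.2 in WT roots (log2 fold change -2.22, limma adjusted p = 2.46e-05). SAMS2 (LOC_Os01g22010), an S-adenosylmethionine synthase, had 326, 280 and 357 FPKM in bHLH6-OV roots, against 558, 531 and 531 in WT roots (log2 fold change -0.76, limma adjusted p = 0.00296). The more abundant SAMS1 missed the threshold (log2 fold change -0.29, limma adjusted p = 0.113). In the other root groups DEP averaged 57.5 FPKM in spx4 and 56.7 in low Pi WT roots, and ARD2 averaged 58.0 in spx4 and 29.6 in low Pi WT roots, again against the same WT high Pi libraries.

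Other large falls included genes of metal binding and transport. A metallothionein (LOC_Os12g38270), of a family of small metal-binding proteins, had 50.5, 38.3 and 19.1 FPKM in bHLH6-OV roots, against 630, 414 and 373 in WT roots (log2 fold change -3.74, SE 0.33, limma adjusted p = 2.72e-05). The other metallothioneins tested differed in direction. LOC_Os12g38051 had 1126, 895 and 598 FPKM in bHLH6-OV roots, against 1922, 1487 and 1621 in WT roots (log2 fold change -0.98, limma adjusted p = 0.0183, lost without WT replicate 1 or 3 or bHLH6-OV replicate 3), and LOC_Os01g05650 had 102, 99.0 and 106 in bHLH6-OV roots, against 49.8, 48.3 and 47.6 in WT roots (log2 fold change 1.06, limma adjusted p = 0.00838). A ribose 5-phosphate isomerase (LOC_Os04g24140) had 20.0, 14.6 and 22.5 FPKM in bHLH6-OV roots, against 151, 115 and 126 in WT roots (log2 fold change -2.73, limma adjusted p = 4.66e-05). Of the neighbouring peptide and nitrate transporter genes LOC_Os01g65110 and LOC_Os01g65100, the first had 0.755, 0.436 and 0.728 FPKM in bHLH6-OV roots, against 16.8, 10.4 and 11.5 in WT roots (log2 fold change -3.06, limma adjusted p = 1.98e-05), and the second 30.5, 24.6 and 18.3 in bHLH6-OV roots, against 95.6, 86.8 and 83.6 in WT roots (log2 fold change -1.84, limma adjusted p = 0.000139). The groups did not overlap for any of these genes.

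Pi starvation genes gave a mixed picture at high Pi. Among 8 tested SPX genes, whose products bind inositol pyrophosphates as a measure of Pi status, 2 were called lower and 1 higher. That was 37.5% called in all, beside 18.0% of all genes. SPX2 (LOC_Os02g10780), a nuclear SPX protein, was all but silent, with 0.105, 0 and 0.0462 FPKM in bHLH6-OV roots (6 reads in all), against 6.46, 4.64 and 5.94 in WT roots (log2 fold change -2.66, SE 0.17, limma adjusted p = 1.39e-06). SPX1 (LOC_Os06g40120) had 7.93, 6.97 and 7.90 FPKM in bHLH6-OV roots, against 13.1, 12.2 and 12.6 in WT roots (log2 fold change -0.67, limma adjusted p = 0.00227). Neither gene overlapped between groups. SPX-MFS3 (LOC_Os06g03860), a vacuolar Pi transporter, had 23.2, 25.7 and 42.7 FPKM in bHLH6-OV roots, against 10.1, 13.8 and 13.1 in WT roots (log2 fold change 1.20, limma adjusted p = 0.0023). SPX3, SPX4, SPX5, SPX6 and SPX-MFS2 were not called, and SPX-MFS1 was too low to be tested.

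PHT1 genes encode the plasma membrane importers of Pi, and 4 of 8 tested were called higher (7.62% of all genes tested were called higher) and none lower. With the filter on low values applied to the 6 compared libraries the count was 2, since PT3 and PT10 passed the filter over all root libraries through their level in low Pi roots. PT2 (LOC_Os03g05640) had 100.9, 83.0 and 76.2 FPKM in bHLH6-OV roots, against 18.5, 18.1 and 18.5 in WT roots, a 4.73-fold higher mean (log2 fold change 2.17, SE 0.15, limma adjusted p = 2.47e-06). PT4 (LOC_Os04g10750) had 10.4, 8.42 and 7.51 FPKM in bHLH6-OV roots, against 3.80, 3.94 and 3.90 in WT roots (log2 fold change 0.99, limma adjusted p = 0.00891). PT3 (LOC_Os10g30770) stayed low, with 1.48, 1.56 and 1.55 FPKM in bHLH6-OV roots, against 0.128, 0.163 and 0.142 in WT roots (log2 fold change 1.15, limma adjusted p = 3.59e-05). The call of PT10, at 0.835 FPKM on average in bHLH6-OV and 0.0656 in WT roots, was lost without any 1 of the 3 WT libraries or without bHLH6-OV replicate 3, and PT10 cannot be cleanly separated from its near-identical neighbour PT9. PT1, the most abundant of the family in WT, had 90.1, 83.0 and 71.2 FPKM in bHLH6-OV roots, against 84.3, 80.2 and 79.7 in WT roots (limma adjusted p = 0.979, log2 fold change -0.01, SE 0.12). PT8 had 56.5, 48.1 and 95.7 FPKM in bHLH6-OV roots, against 41.9, 39.9 and 39.8 in WT roots and was not called (limma adjusted p = 0.154). PT6 and PT9 were not called either, and PT5, PT7, PT11, PT12 and PT13 were too low to be tested.

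Beside these, the values in the other root groups gave a scale, with the WT high Pi libraries shared by all comparisons. SPX2 averaged 3.98 FPKM in spx4 and 54.3 in low Pi WT roots, and SPX1 averaged 16.0 in spx4 and 145 in low Pi WT roots. By the same comparison PT2 averaged 32.5 FPKM in spx4 and 97.8 in low Pi WT roots, PT3 averaged 0.583 in spx4 and 48.5 in low Pi WT roots, and PT4 averaged 6.05 in spx4 and 30.5 in low Pi WT roots. SPX5 and SPX6, which stood above 100 FPKM in every low Pi library, were near 2 FPKM in bHLH6-OV and WT high Pi roots. In these numbers bHLH6-OV roots came near low Pi roots for PT2 and lay on the opposite side of WT high Pi roots from low Pi roots for SPX1 and SPX2.

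**Figure D3:**
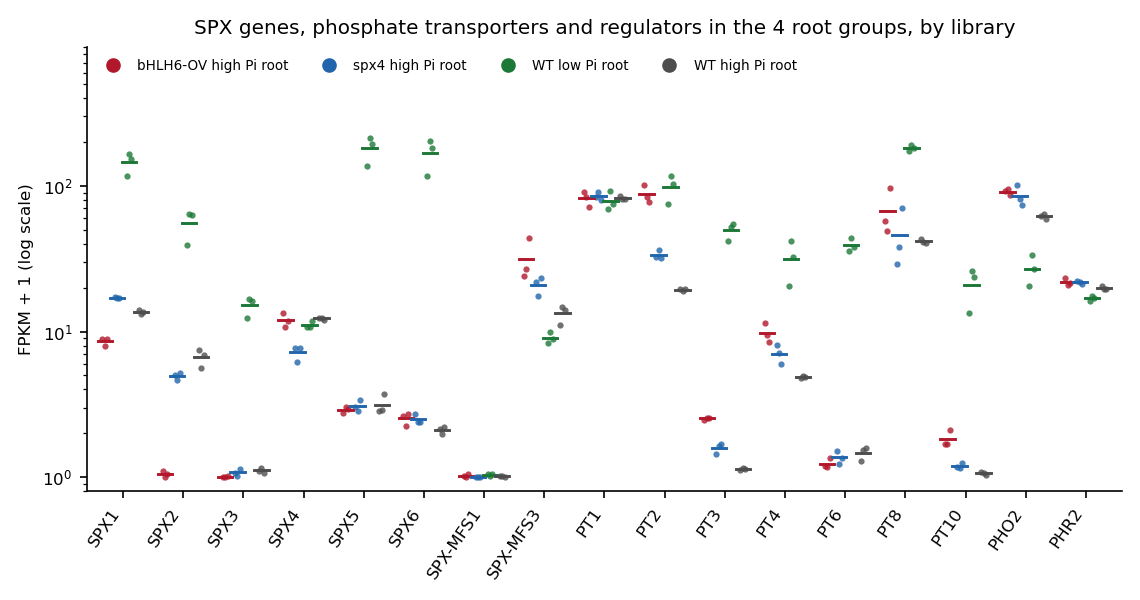
FPKM + 1 on a log axis for SPX genes, PHT1 transporters, PHO2 and PHR2 in bHLH6-OV high Pi, spx4 high Pi, WT low Pi and WT high Pi roots, with 1 point per library and a bar at each group mean. SPX1 and SPX2 are lowest in bHLH6-OV and highest in low Pi roots, while PT2 is high in both.

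Upstream regulators of the Pi response gave 1 call among 8 tested (12.5%, beside 18.0% of all genes). PHR1, PHR2, PHR3, PHR4 and RLI1, MYB-type factors, were not called, nor were the exporters PHO1-1 and PHO1-2, while PHO1-3 was too low to be tested. PHO2 (LOC_Os05g48390), the ubiquitin-conjugating enzyme that limits Pi uptake, had 90.6, 94.4 and 86.3 FPKM in bHLH6-OV roots, against 61.5, 63.0 and 58.6 in WT roots (log2 fold change 0.56, limma adjusted p = 0.0326), and this call did not survive leaving out any 1 of the 6 libraries. Of 16 Pi starvation markers tested, which include SPX and PHT1 genes, 5 were called higher and 4 lower, with 3 higher without WT replicate 1 or 2 or with the filter over the 6 compared libraries. GDPD2 (LOC_Os02g31030), a glycerophosphodiester phosphodiesterase, had 27.9, 28.2 and 28.8 FPKM in bHLH6-OV roots, against 51.1, 45.9 and 52.7 in WT roots (log2 fold change -0.79, SE 0.09, limma adjusted p = 0.000136), and averaged 309 FPKM in low Pi WT roots. Purple acid phosphatases and like phosphoesterases split evenly, 7 higher and 7 lower of 54, with 3 or 4 higher without any 1 library other than bHLH6-OV replicate 3. Among them LOC_Os11g05400 had 16.3, 14.7 and 12.3 FPKM in bHLH6-OV roots, against 5.52, 4.40 and 3.62 in WT roots (log2 fold change 1.49, limma adjusted p = 0.000964). LOC_Os08g44300, a calcineurin-like phosphoesterase, had 0.225, 0.190 and 0.182 FPKM in bHLH6-OV roots, against 8.36, 5.62 and 5.98 in WT roots (log2 fold change -2.66, limma adjusted p = 3.05e-07).

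Jasmonate genes bore on bHLH6 itself, and their list gave no call. Of 15 tested genes of synthesis, perception and JAZ repression, 0 passed the limma threshold, beside 18.0% of all genes. An unadjusted p under 0.05 was found for 3 of them. Limma-voom on read counts rebuilt from FPKM also called 0. Without bHLH6-OV replicate 3 the count was also 0, and it was 3 without bHLH6-OV replicate 2. Replicate 3 carried the high values. JAZ12 (LOC_Os10g25290), a JAZ repressor, had 14.2, 11.5 and 38.4 FPKM in bHLH6-OV roots, against 8.01, 8.44 and 7.11 in WT roots (limma adjusted p = 0.0783). The jasmonoyl-isoleucine synthetase JAR1 (LOC_Os05g50890) had 45.8, 32.9 and 74.7 FPKM in bHLH6-OV roots, against 25.9, 25.002 and 26.1 in WT roots (limma adjusted p = 0.0786). In both, all 3 bHLH6-OV libraries lay above the WT libraries but spread widely. The summed level of the list was 667, 535 and 1089 FPKM in bHLH6-OV roots, against 510, 522 and 520 in WT roots. Among all 14 tested genes with the Zim domain of JAZ repressors, 1 was called higher (7.14%, beside 7.62% of all genes). That call held whichever of the 6 libraries was left out, and limma-voom called 2 of the 14 higher. Of the 249 genes that were at least 2-fold above both sister libraries in bHLH6-OV replicate 3, 7 were among the 14 tested Zim domain genes, 13 among the 85 AP2/ERF genes and 5 among the 67 WRKY genes. The part of this library in the results below was measured by leaving it out.

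Among transcription factor families, WRKY genes, which encode defence-related DNA-binding proteins, had 19 of 67 genes called higher and 1 lower. Over all genes tested, 7.62% were called higher and 10.4% lower. Without bHLH6-OV replicate 3, 14 were called higher and 0 lower. LOC_Os05g50700 had 4.51, 3.22 and 5.28 FPKM in bHLH6-OV roots, against 0.236, 0.294 and 0.411 in WT roots (log2 fold change 2.00, SE 0.18). It lay under 1 FPKM in every WT library. The filter on low values thus favoured its higher direction, so no p-value is given. LOC_Os10g18099 had 42.3, 43.3 and 45.5 FPKM in bHLH6-OV roots, against 16.8, 20.4 and 22.9 in WT roots (log2 fold change 1.097, limma adjusted p = 0.00167), so that replicate 3 was in no way exceptional for it. AP2/ERF genes, a family that includes ethylene-responsive factors, had 12 of 85 genes higher and 6 lower with all libraries, but 6 higher and 8 lower without bHLH6-OV replicate 3. LOC_Os09g35030 of that family had 10.4, 11.9 and 26.7 FPKM in bHLH6-OV roots, against 5.50, 4.89 and 3.58 in WT roots (log2 fold change 1.52, limma adjusted p = 0.0153). NAC factors had 13 higher and 8 lower of 66, MYB-type factors 20 higher and 11 lower of 138, and bHLH factors 12 higher and 18 lower of 98. For bZIP factors 9 of 53 were lower and 1 was higher. Called either way were 29.9% of WRKY, 21.2% of AP2/ERF, 31.8% of NAC, 22.5% of MYB-type, 30.6% of bHLH and 18.9% of bZIP genes. Over all genes that share was 18.0%. These counts shrank with fewer libraries, and so did those over all genes. Leaving out 1 library left 900 to 1455 higher calls over all genes, against 1684, and 1247 to 1990 lower calls, against 2291. Higher calls numbered 12 for WRKY without WT replicate 1 or 2, and 6 or 7 for AP2/ERF without any 1 WT library. Without any 1 WT library or bHLH6-OV replicate 1 they numbered 6 or 7 for NAC and 9 to 12 for MYB-type factors. Lower calls numbered 3 for AP2/ERF without WT replicate 3, 4 or 5 for NAC without WT replicate 2 or 3 or bHLH6-OV replicate 2, and 11 for bHLH factors without WT replicate 2 or 3 or bHLH6-OV replicate 1. For bZIP factors they numbered 2 without WT replicate 1 or 3 and 5 without WT replicate 2 or bHLH6-OV replicate 2.

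**Figure D4:**
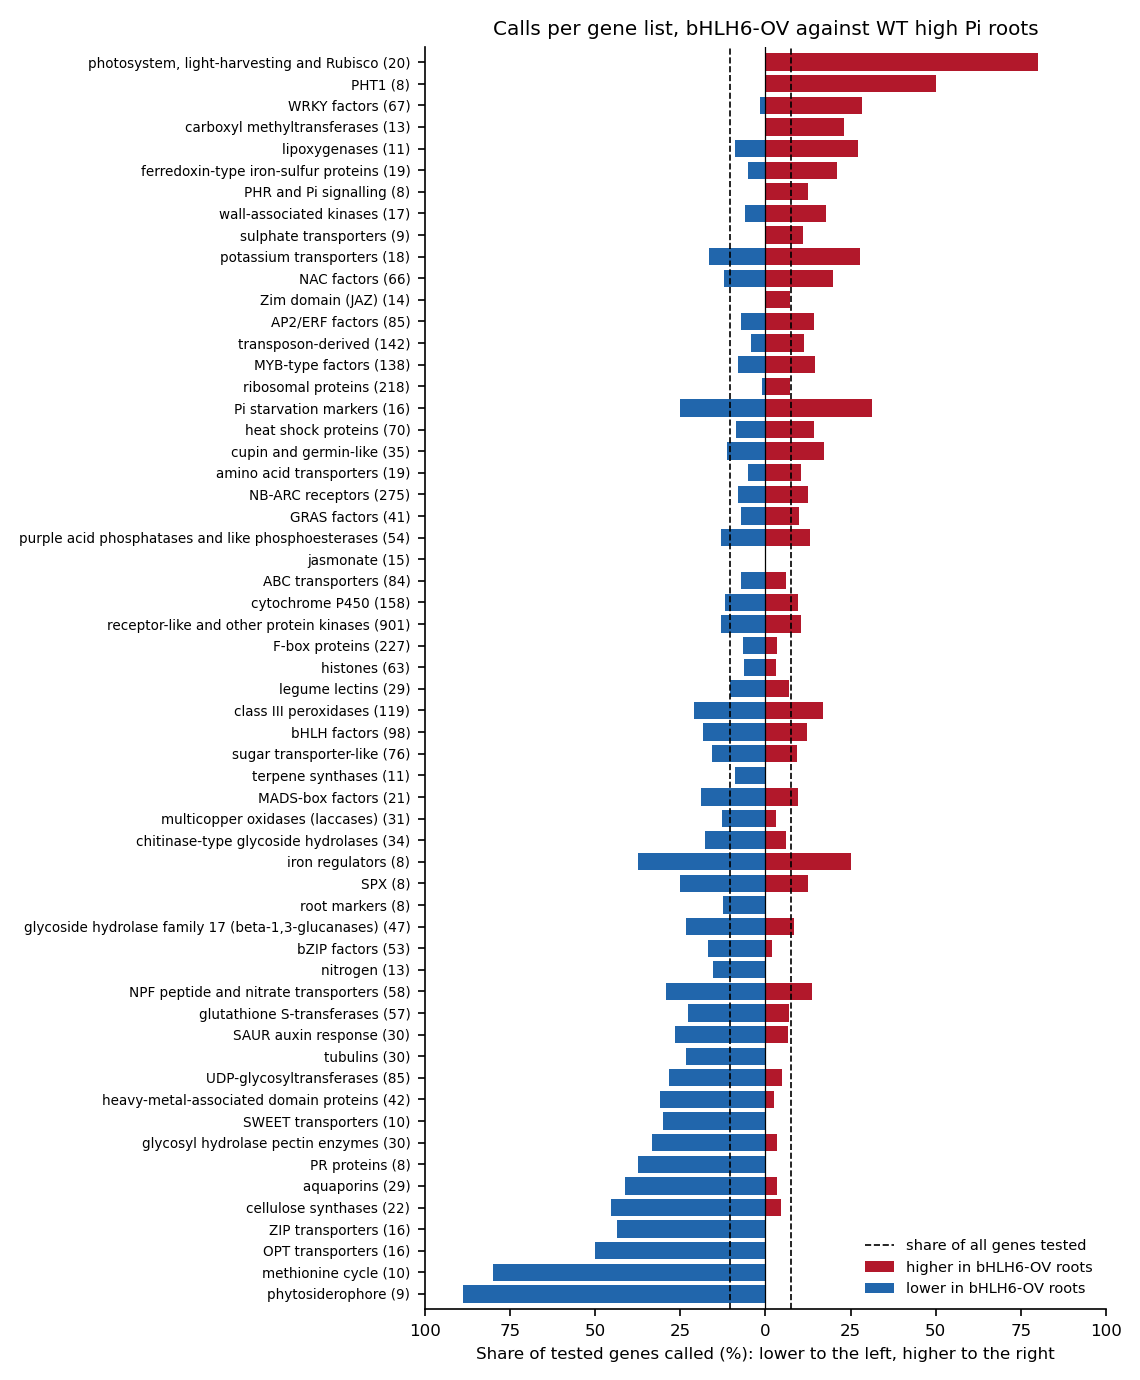
Share of tested genes in lists with 8 or more of them (number tested in brackets) that were called higher (red, to the right) or lower (blue, to the left) in bHLH6-OV roots, with dashed lines at the shares over all genes tested, 7.62% and 10.4%. Photosystem and PHT1 genes head the higher side, and phytosiderophore and methionine cycle genes the lower side.

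Genes of the photosystems, the light-harvesting complexes and the small subunit of Rubisco, which belong to green tissue, had 16 of 20 genes called higher (7.62% of all genes were) and none lower. A Rubisco small subunit gene (LOC_Os12g19381) had 94.9, 109 and 79.6 FPKM in bHLH6-OV roots, against 26.8, 24.999 and 20.2 in WT roots (log2 fold change 1.93, SE 0.40, limma adjusted p = 0.00716). The photosystem I gene PsaL (LOC_Os12g23200) had 75.5, 85.2 and 64.8 FPKM in bHLH6-OV roots, against 26.8, 25.9 and 19.2 in WT roots (log2 fold change 1.61, SE 0.32, limma adjusted p = 0.00641). The summed level was 550, 627 and 477 FPKM in bHLH6-OV roots, against 215, 215 and 174 in WT roots, with means of 365 in spx4 and 62.6 in low Pi WT roots. Leaving out 1 library left 9 genes called higher without WT replicate 3 and up to 15 without another. These genes exceed 100 FPKM in WT shoots in 15 cases, and for those the root level was 1.42% of the same genotype's shoot level in bHLH6-OV and 0.371% in WT (medians over the 15 genes). The part of shoot tissue in the root libraries was not tested. LOC_Os11g47970, an AAA-type ATPase gene, differed in the same direction, with 46.6, 64.2 and 43.9 FPKM in bHLH6-OV roots, against 10.8, 12.6 and 9.53 in WT roots (log2 fold change 2.12, limma adjusted p = 0.00158), and 8510 to 10295 FPKM in bHLH6-OV shoots, against 14043 to 16367 in WT shoots. Root markers, 8 in all, gave no call besides IRT1.

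Cellulose synthases, which build the cell wall, had 10 of 22 genes called lower and 1 higher, beside 10.4% and 7.62% of all genes. The 3 with the largest falls differed by like amounts. LOC_Os09g25490 had 56.3, 55.1 and 52.8 FPKM in bHLH6-OV roots, against 92.3, 95.0 and 100 in WT roots (log2 fold change -0.80, SE 0.09, limma adjusted p = 0.000202), and LOC_Os08g06380 and LOC_Os10g32980 both gave -0.78. Pectin-modifying enzymes had 10 of 30 genes lower and 1 higher, and tubulins, which form microtubules, 7 of 30 lower and none higher. The tubulin gene LOC_Os03g45920 had 108, 122 and 104 FPKM in bHLH6-OV roots, against 189, 223 and 223 in WT roots (log2 fold change -0.92, limma adjusted p = 0.00468). Histone genes, 2 higher and 4 lower of 63, and ribosomal protein genes, 16 higher and 2 lower of 218, had 9.52% and 8.26% of their tested members called, beside 18.0% of all genes. The median log2 fold change of ribosomal protein genes was -0.10 although more of them were called higher than lower. Without bHLH6-OV replicate 3, 14 ribosomal protein genes were called higher and 8 lower, and without any 1 WT library or bHLH6-OV replicate 2 the higher calls numbered 8 to 10. Lower calls numbered 4 for tubulins without WT replicate 2 or 3 or bHLH6-OV replicate 1, 5 or 6 for pectin enzymes without WT replicate 1 or 3 or bHLH6-OV replicate 1, and 1 or 2 for histones without any 1 WT library or bHLH6-OV replicate 1. The lower calls over all genes fell as well, to between 1247 and 1990 without 1 library, against 2291 with all.

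Water and solute transporters showed several families with calls mostly on the lower side. Over all genes, too, more were called lower (10.4%) than higher (7.62%). Aquaporins, which conduct water, had 12 of 29 genes lower and 1 higher. LOC_Os07g26630 had 95.4, 81.4 and 76.9 FPKM in bHLH6-OV roots, against 195, 162 and 181 in WT roots (log2 fold change -1.08, SE 0.12, limma adjusted p = 0.000129), and its neighbours LOC_Os07g26640 and LOC_Os07g26660 gave -1.24 and -0.94. Zinc and iron permeases (ZIP) had 7 of 16 lower, oligopeptide transporters (OPT) 8 of 16 lower and heavy-metal-associated domain proteins 13 of 42 lower and 1 higher. The first of these lists contains the iron genes IRT1 and IRT2 and the second YSL15 and OPT7. Peptide and nitrate transporters (NPF) had 17 of 58 lower and 8 higher, of which 2 to 5 higher calls were left without any 1 library other than bHLH6-OV replicate 2. Lower calls numbered 7 for aquaporins without WT replicate 3, 4 or 5 for OPT genes without any 1 WT library or bHLH6-OV replicate 3, and 8 for heavy-metal-associated proteins without WT replicate 2 or 3. Over all genes, leaving out 1 library left 1247 to 1990 lower calls, against 2291 with all libraries. Of the SWEET sugar transporters, 3 of 10 were lower, among them LOC_Os01g65880 with 33.0, 22.7 and 20.0 FPKM in bHLH6-OV roots, against 92.9, 92.1 and 96.6 in WT roots (log2 fold change -1.89, SE 0.18, limma adjusted p = 5.6e-05). An amino acid transporter went the other way: LOC_Os04g45950 had 10.5, 11.4 and 11.6 FPKM in bHLH6-OV roots, against 1.91, 1.91 and 1.71 in WT roots (log2 fold change 2.097, SE 0.08, limma adjusted p = 8.74e-09). Potassium transporters had 5 of 18 higher and 3 lower, with 2 or 3 higher without any 1 library other than bHLH6-OV replicate 2. In the nitrogen list 2 of 13 genes (GS1-1 and NIA1) were lower and none higher (15.4% called, beside 18.0% of all genes). Both calls were lost whichever library was left out. None of 3 silicon transporter genes was called by limma or limma-voom, and 1 had an unadjusted p under 0.05.

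Among enzymes of secondary metabolism and defence, UDP-glycosyltransferases, which attach sugars to small molecules, had 24 of 85 genes lower and 4 higher. Glutathione S-transferases had 13 of 57 lower and 4 higher. Over all genes tested, 10.4% were called lower and 7.62% higher. Class III peroxidases, which act in the cell wall, had 25 of 119 lower and 20 higher. LOC_Os07g34710 had 12.2, 16.2 and 11.7 FPKM in bHLH6-OV roots, against 1.55, 1.82 and 1.65 in WT roots (log2 fold change 2.41, SE 0.16, limma adjusted p = 2.25e-06), whereas LOC_Os05g04410 had 13.2, 14.8 and 14.96 in bHLH6-OV roots, against 48.9, 57.6 and 56.8 in WT roots (log2 fold change -1.85, limma adjusted p = 9.89e-06). Family 17 glycoside hydrolases, the beta-1,3-glucanases, had 11 of 47 lower and 4 higher. The 4 that were higher included LOC_Os07g35560, with 96.5, 103 and 88.3 FPKM in bHLH6-OV roots, against 20.2, 21.1 and 24.8 in WT roots (log2 fold change 2.08, limma adjusted p = 0.00221). One terpene synthase of 11 was called: LOC_Os04g27190 had 1.47, 1.18 and 1.49 FPKM in bHLH6-OV roots, against 12.8, 10.3 and 9.57 in WT roots (log2 fold change -2.32, limma adjusted p = 2.14e-05). The 3 momilactone genes and 1 phytocassane gene that could be tested were called by neither limma nor limma-voom, with 0 and 1 at an unadjusted p under 0.05. NB-ARC receptors had 34 of 275 higher and 22 lower, and protein kinases 94 of 901 higher and 117 lower. That was 20.4% of NB-ARC and 23.4% of kinase genes called in all, beside 18.0% of all genes. With TPM scaling the kinases gave 109 higher and 94 lower. Leaving out 1 library left 2147 to 3445 calls over all genes, against 3975 with all libraries. Without any 1 WT library or bHLH6-OV replicate 1, as few as 46 kinases were higher, and without any 1 WT library as few as 58 were lower. As few as 12 NB-ARC genes were higher without any 1 library other than bHLH6-OV replicate 3, and 13 or 14 were lower without WT replicate 1 or 2. Without single WT libraries, 10 or 11 peroxidases were higher and, for WT replicates 2 and 3, 14 or 15 were lower. Lower calls numbered 5 to 7 for glutathione S-transferases without any 1 WT library or bHLH6-OV replicate 2, and 5 to 7 for family 17 hydrolases without any 1 WT library or bHLH6-OV replicate 1.

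The most abundant called genes changed modestly. LOC_Os05g15770, a family 18 glycoside hydrolase, had 631, 516 and 507 FPKM in bHLH6-OV roots, against 1159, 1287 and 1308 in WT roots (log2 fold change -1.19, SE 0.11, limma adjusted p = 5.53e-05). LOC_Os11g06720, described as an ABA- and stress-induced protein, had 963, 834 and 751 FPKM in bHLH6-OV roots, against 1595, 1489 and 1748 in WT roots (log2 fold change -0.93, limma adjusted p = 0.000631). The aquaporin LOC_Os03g05290 gave -0.64 and the O-methyltransferase LOC_Os08g06100 gave -0.50 on that scale. Groups did not overlap for any of the 4. Of the 10 most abundant called genes with a description, 9 were lower, and the calls of 6 were lost when certain libraries were left out.

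The strongest rises were in genes that WT roots hardly expressed. LOC_Os01g25470, with an FAD/NAD(P)-binding domain, had 14.8, 13.6 and 15.5 FPKM in bHLH6-OV roots, against 0 reads in each WT library. Taking 3 reads in each WT library as the floor, it was at least 70.1-fold higher. LOC_Os12g12500, a Harbinger transposase-derived gene, had 22.1, 10.6 and 11.0 FPKM in bHLH6-OV roots, against 0 reads in each WT library. By the same floor it was at least 107-fold higher. In spx4 and low Pi WT roots LOC_Os01g25470 averaged 0.128 and 0.024 FPKM, and LOC_Os12g12500 had 0. Both genes thus passed the filter on low values through the bHLH6-OV roots, which fixed their direction, so no p-value is given. LOC_Os01g15740, a transferase, had 12.4, 14.2 and 12.1 FPKM in bHLH6-OV roots, against 1 read in all in WT roots, and averaged 12.4 FPKM in spx4 roots. LOC_Os10g26840, with a ribonuclease H-like domain, had 11.8, 12.8 and 13.2 FPKM in bHLH6-OV roots, also against 1 read in all in WT roots. These genes were on in every bHLH6-OV library and off or nearly so in every WT library. LOC_Os12g02780, a reverse transcriptase gene, had 5.37, 5.11 and 5.57 FPKM in bHLH6-OV roots, against 0 reads in each WT library, at least 59.9-fold higher by the same floor. LOC_Os12g24050, with a ribonuclease H-like domain, had 5.94, 5.602 and 4.68 FPKM in bHLH6-OV roots, against 5 reads in all in WT roots. Others were detectable in WT roots: the log2 fold change was 2.44 for LOC_Os04g34490 (EamA domain), 2.28 for the kinase gene LOC_Os11g34610 and 2.27 for LOC_Os05g18780 (ribonuclease P/MRP subunit). Their groups did not overlap, which the rule for naming the strongest rises required.

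Neighbouring kinase genes on chromosome 7 stood out in the same way. LOC_Os07g14470 (8248395 to 8249018), described as a wall-associated receptor kinase, had 13.7, 16.3 and 9.87 FPKM in bHLH6-OV roots, against 0.216, 0.355 and 0.842 in WT roots (log2 fold change 3.28, SE 0.20). LOC_Os07g14490 (8257197 to 8258252), with a protein kinase domain, had 10.7, 10.3 and 7.05 FPKM in bHLH6-OV roots, against 0.102, 0.186 and 0.340 in WT roots (log2 fold change 3.08). Both genes lay under 1 FPKM in every WT library. The filter on low values thus favoured their higher direction, so no p-value is given. LOC_Os04g38360, with a PLAT/LH2 domain, had 34.0, 48.2 and 88.6 FPKM in bHLH6-OV roots, against 5.25, 3.59 and 4.80 in WT roots (log2 fold change 3.29, limma adjusted p = 0.000119), with replicate 3 highest. In the opposite direction LOC_Os06g11240, an NADH:flavin oxidoreductase, had 0.587, 0.388 and 0.377 FPKM in bHLH6-OV roots, against 9.44, 8.64 and 8.87 in WT roots (log2 fold change -2.78, limma adjusted p = 1.09e-06).

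Genes without a description made up 47.7% of those tested. All 24 genes at least 16-fold higher on the FPKM + 1 scale lacked one, bHLH6 included, while described genes such as LOC_Os12g12500 passed 16-fold only against the floor of 3 reads, since that scale compresses low levels. The extremes below were picked after their values were seen. LOC_Os07g32710 (chromosome 7, 19533176 to 19534577) had 582, 545 and 575 FPKM in bHLH6-OV roots, against 0.169, 0.0789 and 0.161 in WT roots (log2 fold change 8.97, SE 0.10, limma adjusted p = 2.29e-13). It was equally high in the spx4 line, at 475, 662 and 599 FPKM, and stayed between 0.0744 and 0.124 in low Pi WT roots. LOC_Os03g02470 (chromosome 3, 887171 to 889518) had 189, 172 and 172 FPKM in bHLH6-OV roots, against at most 0.0203 in WT roots and 0.0165 in spx4 roots. The first gene was thus high in both lines that differ from WT and the second in bHLH6-OV alone of these groups. On the lower side LOC_Os03g12870 had 0.0495, 0 and 0.0435 FPKM in bHLH6-OV roots, against 18.96, 21.3 and 20.6 in WT roots, and at most 0.0409 in spx4 roots. LOC_Os02g53880 had 1.83, 0.168 and 0.733 FPKM in bHLH6-OV roots, against 44.0, 34.0 and 30.7 in WT roots.

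In all, 35 of the 49 tested genes with 0 reads in every WT high Pi root library were called higher in bHLH6-OV roots (7.62% of all genes tested were). They were higher by at least 8.39-fold to at least 857-fold over the floor. Of 11 tested genes with 0 reads in every bHLH6-OV root library, 0 were called by limma or limma-voom, and 0 had an unadjusted p under 0.05. Of the 35, 28 also had 0 reads in every spx4 root library, 30 in every low Pi root library and 28 in every WT shoot library, while 31 had reads in all 3 bHLH6-OV shoot libraries. Most of them thus passed the filter on low values through the bHLH6-OV roots, so their number is a description and their direction was fixed by that filter. A description was given for 4 of them. LOC_Os12g13450 had 1 read in bHLH6-OV replicate 1, and an unannotated transcript on chromosome 1 had 0 reads in bHLH6-OV replicate 2. Each of these calls held in only 1 of the 6 fits that left out a library. Called genes of the same direction and at least 2-fold size that lay next to each other among tested genes formed 49 runs, 104 genes in all, of which 31 runs were higher and 18 lower. The NAS pair was in a run of 3 with LOC_Os03g19436, and the longest run held 4 genes. Over 376 windows of 1 Mb the share of tested genes called had a median of 17.6% and ranged between 3.33% and 41.7%, highest at 16 to 17 Mb of chromosome 12 with 5 of 12 genes. The next were 17 to 18 Mb of chromosome 4 with 9 of 22 genes and the first 1 Mb of chromosome 10 with 13 of 34.

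Whether bHLH6 overexpression acted alike in roots and shoots was tested over all 24 libraries, root effect minus shoot effect, with no library shared between the tissues. This difference was called for 6751 of 22980 genes (29.4%), 3459 positive and 3292 negative, while the shoot comparison itself gave 7535 calls (32.8%). With TPM scaling, which moved the median difference to -0.14, the split was 1771 positive and 4185 negative. bHLH6 was also high in shoots, at 85.8, 110 and 120 FPKM in bHLH6-OV shoots, against 5.21, 5.22 and 5.29 in WT shoots, and its difference between tissues was not called (0.49, SE 0.96, limma adjusted p = 0.733). SPX2 was low in bHLH6-OV shoots too, at 0.809, 0.557 and 1.01 FPKM, against 11.9, 10.7 and 11.0 in WT shoots (difference 0.11, SE 0.23, limma adjusted p = 0.746). So was LOC_Os06g11240, at 0.533, 0.507 and 0.484 FPKM in bHLH6-OV shoots, against 6.07, 9.88 and 6.66 in WT shoots (difference -0.31, SE 0.29, limma adjusted p = 0.452).

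Iron genes parted between the tissues. NAS2, NAS1, YSL15 and TOM1 were near 0 FPKM in shoots of both genotypes, so that their differences (-5.31, -5.18, -4.68 and -3.95) restated the root effect. NAAT1 and DMAS1 were expressed in shoots and not called there: NAAT1 had 340, 309 and 163 FPKM in bHLH6-OV shoots, against 208, 105 and 225 in WT shoots (difference -4.37, limma adjusted p = 0.00166), and DMAS1 had 56.7, 54.8 and 43.7 in bHLH6-OV shoots, against 48.6, 46.9 and 46.8 in WT shoots (difference -3.27, limma adjusted p = 5.92e-07). NRAMP1 fell more in shoots than in roots, to 0.563, 0.442 and 0.322 FPKM in bHLH6-OV shoots, against 113, 73.2 and 73.8 in WT shoots (shoot log2 fold change -5.90, difference 2.71, limma adjusted p = 0.00302). Opposite signs were seen for the metallothionein LOC_Os12g38270, with 226, 130 and 132 FPKM in bHLH6-OV shoots, against 66.2, 61.4 and 82.9 in WT shoots (difference -4.91, limma adjusted p = 7.15e-08). The transporter LOC_Os01g65110 also turned round, with 4.58, 14.9 and 18.02 FPKM in bHLH6-OV shoots, against 0.370, 0.449 and 0.441 in WT shoots (difference -6.13, SE 0.45, limma adjusted p = 1.32e-08).

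**Figure D5:**
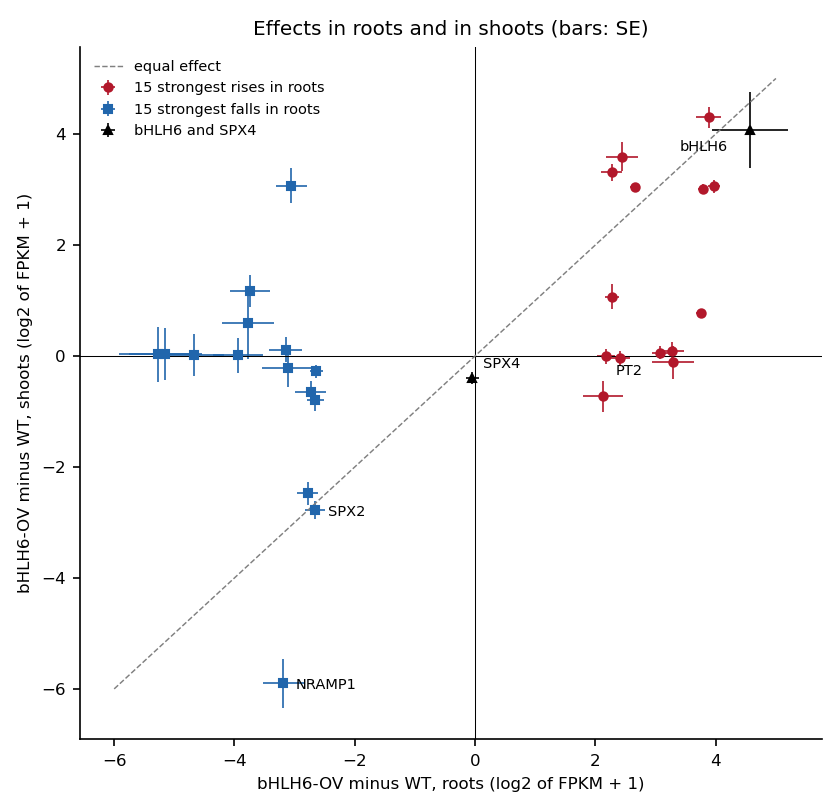
Log2 fold change of bHLH6-OV over WT in roots (horizontal) and in shoots (vertical), with bars of 1 SE, for bHLH6, SPX4 and the 15 strongest rises and falls in roots. SPX2 and bHLH6 lie near the line of equal effect, NRAMP1 lies far below it at -5.90 in shoots, and most iron genes lie near 0 in shoots.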

How the data were processed

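The authors deposited 1 FPKM value per gene and library for 57668 features, together with gene descriptions and positions. Per the submitters' processing notes, HISAT2, StringTie, featureCounts 1.5.0-p3 and DESeq2 were used, with no role or order given, and a NEBNext Ultra kit made the libraries per the labels' protocols. The genome build and the strand setting are not given in the sources used here, so reads of overlapping or antisense genes cannot be separated.

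From the deposited FPKM values, log2(FPKM + 1) was fitted with limma 3.58.1 (R 4.3.3, trend and robust moderation) over the 12 root libraries, keeping the 22090 genes whose mean over them reached 1 FPKM. A pseudocount of 1 understates the change of low genes. Adjusted p-values are Benjamini-Hochberg values over every gene in the fit. The root and shoot difference was fitted over all 24 libraries. Every deposited value divided into whole reads within 0.01. The library size implied by the FPKM was 1.24 to 1.30 times the reads in genes in bHLH6-OV roots and 1.21 to 1.23 times in WT roots. In shoots it was 0.894 to 1.04 times in bHLH6-OV and 0.773 to 0.844 times in WT. A larger divisor lowers FPKM, so the scale differed between genotypes, more so in shoots. The rebuilt reads served for depth, for floors of 3 reads per library, which cover counting error only, and for limma-voom, an alternative added after the data were seen. On simulated data with 200 of 22090 genes changed, 91% of log2 changes of 1 and 100% of those of 2 were recovered, with 6.4% false calls. The changed genes were drawn only from those well above 1 FPKM in WT roots, with independent normal noise. Recovery of lower genes, or with a library that stands apart, was not tested.

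Members and gene lists were chosen with earlier results of these data known. Of 121 gene symbols taken from published assignments, 80 lay within 1.5 Mb of the same symbol in the ASM3414082v1 reference table, 35 were not in it and 6 lay elsewhere, TOM1, IRO2 and VIT2 among them. Loci without description or symbol in either source were left out of the lists. The rule for named genes takes bHLH6 and SPX4, the 15 largest rises and falls among called genes that do not overlap between groups, have at least 5 FPKM in 1 group and carry a symbol or description, the 10 most abundant called genes, up to 4 called members per list, all members of the phytosiderophore, SPX, PHT1 and PHR lists, and the windows with most calls. Not every gene it takes is printed. Other genes, among them uncalled members of the iron, methionine and jasmonate lists, were named after their values were seen.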

Additional observations from a re-analysis of the deposited data

Results flagged for a closer look

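For 26 genes named above from the strongest rises and falls, the root effect of bHLH6-OV differed from the shoot effect in a limma fit over all 24 libraries, with Benjamini-Hochberg adjusted p-values of at most 0.026. Each value below is the root effect minus the shoot effect on the log2 scale. Groups of 3 libraries were not tested for single outlying samples.

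Some genes were called in the same direction in both tissues and differed in size. LOC_Os01g25470 gave 0.91, LOC_Os01g15740 gave 0.77 and LOC_Os10g26840 gave 2.97, all with the larger rise in roots, and so did the kinase gene LOC_Os11g34610 with 1.21. Larger rises in shoots were found for LOC_Os12g24050 (-0.40), LOC_Os04g34490, an EamA-type transporter gene (-1.15), and LOC_Os05g18780, a ribonuclease P/MRP subunit gene (-1.03). NRAMP1 gave 2.71, with the larger fall in shoots. The isomerase gene LOC_Os04g24140 (-2.07) and the phosphoesterase gene LOC_Os08g44300 (-1.87) fell more in roots.

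Another set was close to silent in shoots of either genotype, so the difference rests on the roots. Among the rises these were LOC_Os04g38360 (3.40), the kinase genes LOC_Os07g14470 (3.19) and LOC_Os07g14490 (3.02), the peroxidase gene LOC_Os07g34710 (2.46) and PT2 (2.18). Among the falls these were NAS2 (-5.31), NAS1 (-5.18), YSL15 (-4.68), TOM1 (-3.95), IRT2 (-2.88) and IRT1 (-2.36), the last at 1.04 FPKM on average in bHLH6-OV and 1.47 in WT shoots.

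The remaining genes were expressed in shoots with no call there or with the opposite sign. NAAT1 gave -4.37 and DMAS1 -3.27, neither called in shoots. LOC_Os11g47970 gave 2.84, and its shoot log2 fold change of -0.72 missed the threshold (limma adjusted p = 0.0527). The metallothionein gene LOC_Os12g38270 gave -4.91 and the transporter gene LOC_Os01g65110 gave -6.13, and both were called higher in bHLH6-OV shoots.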

How the results depend on the processing

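Leaving out 1 library left between 2147 and 3445 genes called in roots, against 3975 with all 6. Higher calls ranged between 900 and 1455 and lower calls between 1247 and 1990. The count was more than 1.5 times smaller without WT replicate 1 (2562), WT replicate 2 (2342) or WT replicate 3 (2147). TPM scaling gave 3874 calls, median-of-ratios scaling 3985, a pseudocount of 0.1 3898, no filter 4375, the filter over 6 libraries 4113, a fit of the 6 libraries alone 4864 and limma-voom on rebuilt reads 3915. No named gene reversed. Of 231 named calls, these settings lost between 0 and 26 and single libraries between 35 and 55. The 0 belongs to the filter over 6 libraries, which tested 285 of the 290 named genes. Calls of genes it left untested, PT3 and PT10 among them, are not counted in that 0. Replicates of the same number correlated weakly in their deviations (0.15, 0.16 and 0.08, against -0.12 to -0.03 for unlike numbers), each best with its own number, which is a hint of pairing from the data. Deviations from a group mean sum to 0 within the group, so the negative values for unlike numbers are not separate evidence. The labels name nothing that the numbers share and the pair of replicates 3 lay under 0.1, so the main fit has no block. With the replicate block 3813 genes were called in roots and 6555 for the difference between tissues, against 6751 without it. The edgeR and DESeq2 fits planned for counts were not run because the deposited values are FPKM. Each group had 3 libraries, and PT3, PT10, IRT2 and SPX2 rested on few reads in 1 group.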
